A study of Mus musculus with 14 samples.

Results

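The nuclear genes for the subunits of respiratory complexes II, III, IV and V, together with Cycs for cytochrome c, were followed in whole hearts of complex I-deficient mice, in a comparison of Atf3 genotypes and one of hairpins labelled as control or against Atf3. Members were the genes of both count tables whose symbol begins with Uqcr, Cox4 to Cox8 or Atp5, or is Sdha to Sdhd, Cyc1 or Cycs. Of 52 matching symbols, 3 were dropped by name as numbered copies or pseudogenes. Cox7b2 and Cox8c stayed below a level of 1 CPM (counts scaled to the same total in each library) in every library. The remaining 47 of 42396 listed genes were 4 genes of complex II, 9 of complex III, Cycs, 16 of complex IV and 17 of complex V. The genes of mitochondrial DNA were left out by this rule.

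All 14 hearts came from female FS6KD mice, homozygous for a gene trap in Ndufs6 (Ndufs6 gt/gt) that lowers this complex I subunit mainly in the heart. The strain is of mixed C57BL/6J and 129/Ola background. In the knockout experiment, 4 Atf3+/+FS6KD hearts were compared with 4 Atf3-/-FS6KD hearts at 12 weeks, the latter carrying a CRISPR-Cas9 deletion that spans exons 2 to 4 of Atf3 in every cell. In the AAV experiment, 3 hearts labelled MyoAAV2-shCtrl were compared with 3 labelled MyoAAV2-shAtf3, 12 weeks after neonatal injection of a muscle-directed adeno-associated virus with a control or Atf3 short hairpin RNA. No heart in either experiment was free of the Ndufs6 knockdown.

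Atf3 did not separate the groups as the labels would have it. Its raw level was 6.24 to 25.4 CPM in Atf3+/+FS6KD and 14.4 to 38.7 CPM in Atf3-/-FS6KD. Reads outside the deleted part are still counted, so this level does not check the knockout label. It was 10.3 to 14.2 CPM under the shCtrl label and 12.1 to 20.8 CPM under the shAtf3 label. In the AAV table the columns named for Atf3 belong to samples titled shCtrl, and the columns named as controls to samples titled shAtf3. By the column names these Atf3 ranges change places, with the lower one under the Atf3 name, and they overlap. The titles were followed, and every AAV direction below holds only if they are right. Ndufs6 was at 2.40 to 3.72 raw CPM over all libraries. Total counts were 33914931 to 134920825 per library in the knockout experiment and 30085432 to 40534913 in the AAV experiment. In both genotypes replicates 3 and 4 were the deeper libraries, at 112904389 counts or more, and replicates 1 and 2 the shallower, at 42409691 or fewer. The study describes the 4 hearts of each group of the knockout experiment as biological replicates. The labels do not state it for the AAV hearts, where p-values may measure only the spread between samples. Cardiomyocyte markers summed to 55760 to 73710 raw CPM over all libraries, with none of the 8 at 0 throughout a group, and adipocyte markers to at most 0.655 raw CPM.

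Complex II (succinate dehydrogenase) passes electrons from succinate to ubiquinone. Complex III passes them from ubiquinone to cytochrome c, and complex IV (cytochrome c oxidase) from cytochrome c to oxygen. Complex V uses the proton gradient so built to make ATP. Several complex IV subunits exist as a ubiquitous isoform and one that prevails in heart and skeletal muscle, and subunit c of complex V is encoded by several genes with an identical mature protein. Atf3 is a basic leucine zipper factor of the ATF/CREB family, which binds cyclic AMP response elements (CRE).

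Promoter sequences of RefSeq (GRCm38.p6, from 250 bases before to 50 bases after the annotated start) were available for 36 of the 47 members. The 8-letter CRE TGACGTCA, searched on both strands, was found in 2 of these 36 (5.56%), those of Cycs and Uqcrfs1, and in 2.03% of the promoters of all 27025 genes with an entry. Both are printed because they hold the full element that the ATF family binds. Each lies on the minus strand and is written 5′ to 3′ along its gene. Capitals mark the CRE in both and, near the end of the Cycs stretch, the core of the element for nuclear respiratory factor 1 (NRF1). The Cycs stretch is chr6:50566620-50566819, which ends 51 bases before the start, and the Uqcrfs1 stretch is chr13:30545317-30545516, which ends at the base before the start.
Cycs: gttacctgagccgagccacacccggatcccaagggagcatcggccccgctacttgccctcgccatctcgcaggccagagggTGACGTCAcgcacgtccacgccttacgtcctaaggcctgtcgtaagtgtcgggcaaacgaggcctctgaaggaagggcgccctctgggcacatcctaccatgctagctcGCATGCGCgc
Uqcrfs1: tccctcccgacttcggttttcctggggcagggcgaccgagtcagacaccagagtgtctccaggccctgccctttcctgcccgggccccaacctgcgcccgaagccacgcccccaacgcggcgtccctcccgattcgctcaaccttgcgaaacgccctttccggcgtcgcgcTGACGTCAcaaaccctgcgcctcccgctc

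The CRE began 169 bases before the start in Cycs and 29 bases before it in Uqcrfs1. The NRF1 core GCGCATGC or its complement was found in 8 of the 36 promoters (22.2%), against 3.05% of all genes. Its holders were Atp5g2, Atp5k, Atp5l, Cox6a1, Cycs, Sdhb, Uqcr11 and Uqcrc1. The related AP-1 element TGACTCA was found in 3 (8.33%, against 5.95%), the estrogen-related receptor element TCAAGGTCA in 2 (5.56%, against 0.466%) and the ETS element CCGGAAGT in 4 (11.1%, against 4.31%). TATAAA was found in 3 (8.33%, against 15.7%). A match describes these letters only, and the windows of the other 11 members were not examined.

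The subunit genes differed widely in level, and members of one complex did not share a level. Levels between genes were compared as CPM per kilobase of the longest RefSeq-linked transcript, with numbered copies added, as means over the 14 libraries. Atp5b, the catalytic beta subunit of complex V, was the highest at 3028 CPM per kilobase (SD 145), followed by the alpha subunit gene Atp5a1 at 2041 (SD 104). Their ranges over the libraries, 2837 to 3260 and 1897 to 2219, did not overlap. The Atp5a1 level includes a copy row with values equal to its own, and without that row it was 1020 and 15th in order. With its shortest transcript, Atp5g1 would lie above Atp5a1. The next 4 genes, Cox6a2, Atp5g3, Cox4i1 and Cox7a1, lay between 1905 and 1721 CPM per kilobase with overlapping ranges, so their order was within the spread, and the highest Cox6a2 library, at 2304, lay above the Atp5a1 mean.

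Complex II, which has 1 copy of each subunit, was unevenly represented. Sdhb, the iron-sulphur subunit, stood at 800.0 CPM per kilobase (SD 30.7), the flavoprotein gene Sdha at 555.9 (SD 37.0), and the membrane anchors Sdhd at 524.7 (SD 35.4) and Sdhc at 140.4 (SD 8.52). The Sdha and Sdhd ranges overlapped, and those of Sdhb and Sdhc were apart from them and from each other. Cycs stood at 445.5 CPM per kilobase (SD 38.0). These values depend on the transcript assumed: 7 members have linked transcripts of more than 1 length, and Atp5g1, one of the subunit c genes, stood at 266.9 with the longest and at 2112 with the shortest.

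Muscle isoforms of complex IV were far above their ubiquitous partners. Cox6a2 stood at 1905 CPM per kilobase (SD 238) and Cox6a1 at 161.6 (SD 16.5), Cox8b at 1479 (SD 130) and Cox8a at 235.6 (SD 21.9), and Cox7a1 at 1721 (SD 166) and Cox7a2 at 538.4 (SD 81.3). The ranges within each pair did not overlap. Subunit 4 showed the reverse order by type: the ubiquitous Cox4i1 stood at 1840 (SD 109) and Cox4i2, an isoform best known from lung and from hypoxia, at 13.7 (SD 1.82). Cox6b2, the testis isoform of subunit 6B, was at 1.30 CPM per kilobase (SD 0.512), close to the detection limit set here.

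**Figure D1:**
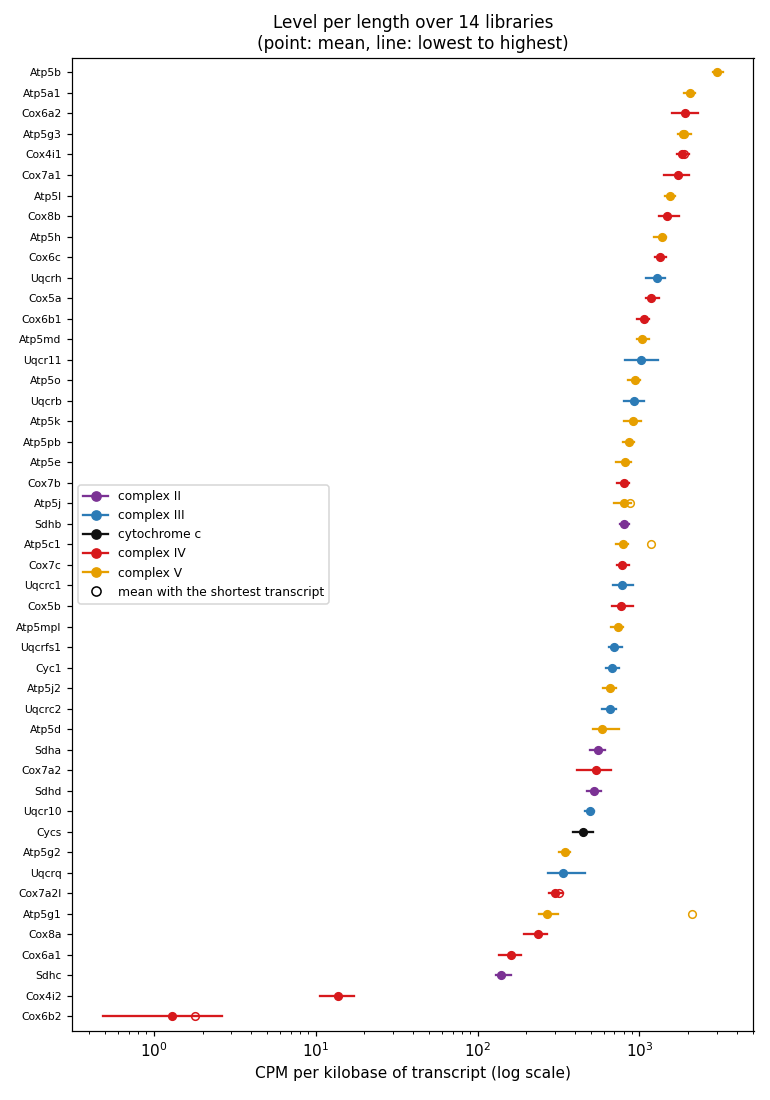
Level of each of the 47 genes as CPM per kilobase of transcript (log axis), with the mean as a point and the lowest to highest of the 14 libraries as a line, coloured by complex. Open points give the mean with the shortest linked transcript. Atp5b leads at 3028, and Cox4i2 and Cox6b2 lie at 13.7 and 1.30, far below all other members.

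The knockout comparison asked how the loss of Atf3 bears on the remaining chain in hearts short of complex I. No member passed the adjusted threshold, but nearly all lay slightly lower in Atf3-/-FS6KD. Of the 47 members, 45 (95.7%) had a log2 fold change below 0, while 49.8% of all genes tested did. The median over members was −0.11 on the log2 scale (−7.44%), and over all 15592 genes tested it was 0.0005. In edgeR's quasi-likelihood test 0 of 47 members and 0 of all genes (0.0%) reached an adjusted p below 0.05, with a smallest adjusted p among members of 0.392.

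At an unadjusted p below 0.05 there were 6 members lower (12.8%), where 4.69% of all genes were lower, and 1 higher (2.13%), where 5.41% of all genes were higher. DESeq2 called 0 members and 208 of all genes (1.33%), with 10 members and 5.7% of all genes lower at an unadjusted p below 0.05. Limma-trend called 0 members and 0 of all genes, with 5 members and 4.57% of all genes lower at that threshold. The values of the 2 groups did not overlap for 3 members that were lower (6.38%, against 2.63% of all genes) and for 1 that was higher (2.13%, against 3.08%). The count of 6 depended on single libraries. Leaving out Atf3+/+FS6KD replicate 3 gave 18, beside 5.49% of all genes, and leaving out replicate 2 or replicate 4 of that group gave 1, beside 3.57% and 4.02%. Among the knockouts, leaving out replicate 2 gave 2, beside 3.97%, and leaving out replicate 3 or replicate 4 gave 3, beside 3.29% and 4.1%, so these counts were near the background.

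The complexes were described by their medians, and differences between them were not tested. The median log2 fold change was −0.12 in complex II with 4 of 4 genes below 0, −0.12 in complex III with 9 of 9, −0.11 in complex IV with 14 of 16, and −0.11 in complex V with 17 of 17. Cycs stood at −0.06, or between −0.09 and −0.0056 on leaving out any one library. Within complex V the medians were −0.14 for the 5 genes of the F1 head, −0.13 for the 4 of the peripheral stalk, −0.10 for the 3 subunit c genes and −0.10 for the 5 other membrane subunits. Genes that share a complex also share every library, so their agreement is not replication. Averaged by library, the genotypes overlapped in complexes II, IV and V, and in complex III the knockout hearts (9.20 to 9.25 log2 CPM) were below the controls (9.27 to 9.41).

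Averaged over all 47 members, log2 CPM came to 9.03, 9.18, 8.99 and 9.12 for the control hearts by replicate number and to 8.95, 8.96, 8.98 and 8.98 for the knockout hearts. The knockout values were close together and below the controls, but Atf3+/+FS6KD replicate 3 was above them by under 0.01. Without Cox6b2 that library was at 9.19 and the knockouts at 9.18 to 9.19. Summed CPM over members overlapped, at 38720 in Atf3-/-FS6KD replicate 1 and 38270 in Atf3+/+FS6KD replicate 3. Members took 3.77 to 4.19% of all counts in Atf3+/+FS6KD and 3.86 to 3.90% in Atf3-/-FS6KD, shares that overlap. When libraries were scaled by their totals alone, the median over members was −0.05 and that over all genes 0.06, a difference of −0.11, and 0 members and 2.12% of all genes were lower at an unadjusted p below 0.05.

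**Figure D2:**
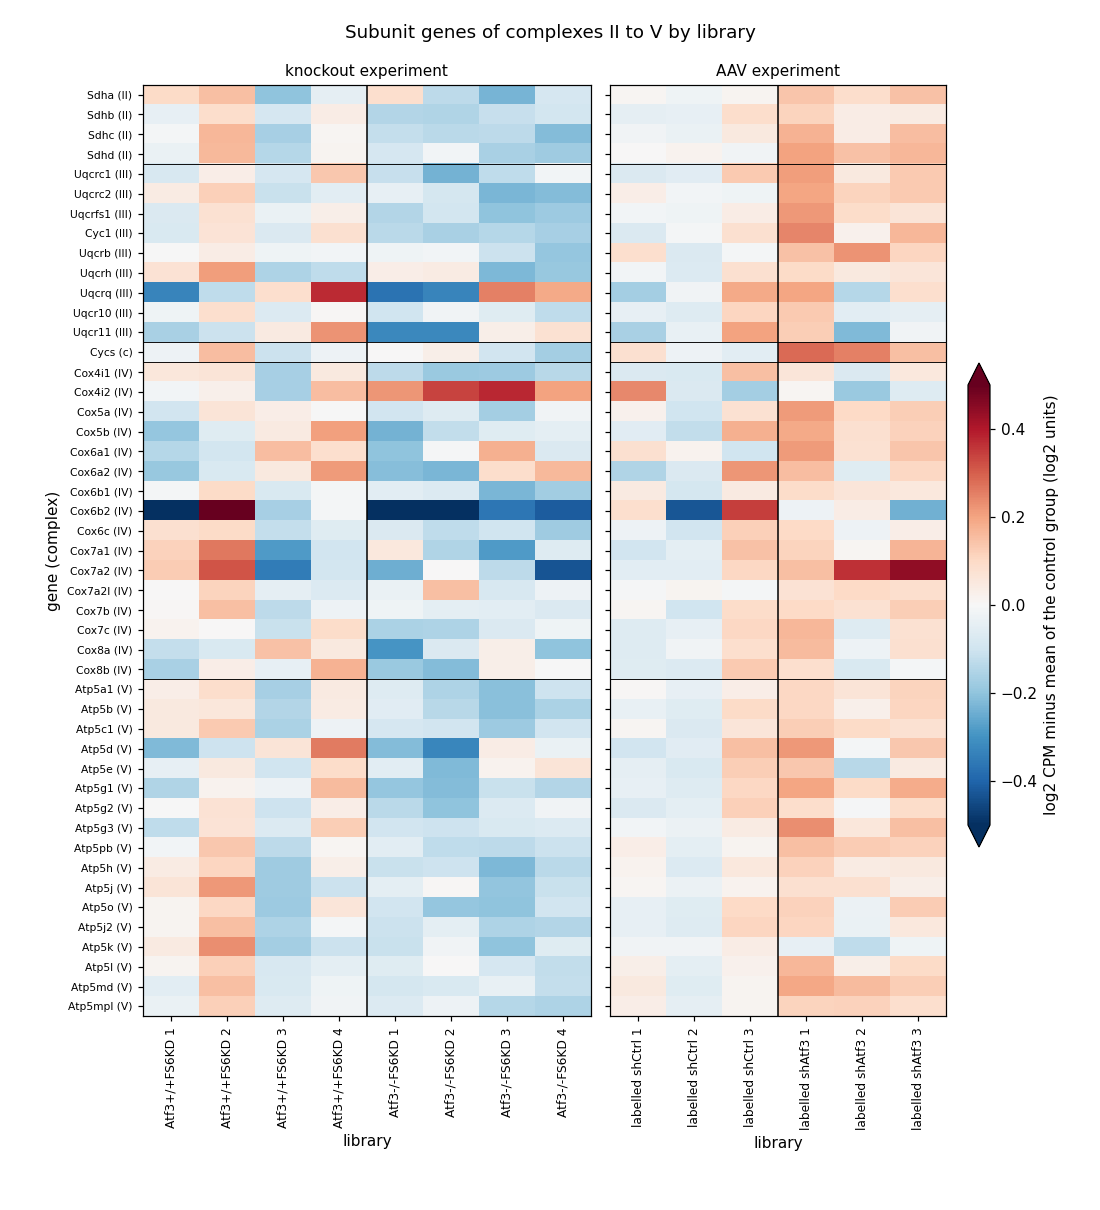
Each row is 1 of the 47 genes and each column 1 library, and the colour is its log2 CPM minus the mean of the control group of the same experiment (Atf3+/+FS6KD or labelled shCtrl). Among the Atf3+/+FS6KD libraries the mean over members is highest in replicate 2 and lowest in replicate 3, among those labelled shCtrl it is lowest in replicate 2 and highest in replicate 3, Cox4i2 alone is high in all 4 Atf3-/-FS6KD libraries, and Uqcrq, Uqcr11, Cox6a2 and Atp5d follow the deeper libraries (replicates 3 and 4).

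Complex III held the lower members with the smallest p. Uqcrfs1 (chromosome 13, 30540312 to 30545316) encodes the Rieske iron-sulphur protein, which takes electrons from ubiquinol. It measured 945, 1048, 972 and 1014 CPM in Atf3+/+FS6KD and 898, 932, 864 and 877 CPM in Atf3-/-FS6KD. The groups did not overlap, with a log2 fold change of −0.16 (SE 0.05, edgeR p 0.0170, adjusted p 0.403). Cyc1 (chromosome 15, 76343513 to 76346260), for cytochrome c1, measured 1036, 1145, 1038 and 1154 CPM in controls and 995, 975, 988 and 974 CPM in knockouts. Again the groups were apart (log2 fold change −0.15, SE 0.05, edgeR p 0.0207, adjusted p 0.420). The core protein gene Uqcrc1, counted without its numbered copy, was at −0.12 (SE 0.07, −0.16 to −0.08 on leaving out any one library), with overlapping groups.

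In complex II, Sdhb (chromosome 4, 140961271 to 140979198) measured 935, 1024, 907 and 988 CPM in Atf3+/+FS6KD and 869, 867, 889 and 903 CPM in Atf3-/-FS6KD. These values were apart by a small margin, with a log2 fold change of −0.13 (SE 0.05, edgeR p 0.0424, adjusted p 0.476). Sdha was at −0.09 (SE 0.09, −0.16 to −0.04 on leaving out any one library), Sdhc at −0.15 (SE 0.07, −0.21 to −0.10) and Sdhd at −0.11 (SE 0.07, −0.16 to −0.06), all with overlapping groups.

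In complexes IV and V the lower members overlapped between groups. Cox4i1 measured 1556, 1564, 1332 and 1547 CPM in controls and 1368, 1316, 1318 and 1360 CPM in knockouts. Only Atf3+/+FS6KD replicate 3 lay among the knockout values (log2 fold change −0.16, SE 0.06, edgeR p 0.0285, adjusted p 0.441). Atp5g1 (−0.17, SE 0.07, p 0.0343, adjusted p 0.459) and Atp5b (−0.14, SE 0.06, p 0.0441, adjusted p 0.477) were the complex V genes at an unadjusted p below 0.05 in edgeR. Atp5a1 was at −0.14 (SE 0.07, p 0.0706). Cox6b2 had the lowest value of any member, −0.78 (SE 0.38), at 0.282 to 1.60 CPM. It was above 1 CPM in this experiment only in Atf3+/+FS6KD replicate 2, so it was tested only through the group where it was higher. Without it 44 of 46 members were below 0 and the median was −0.11.

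Cox4i2 went the other way. It measured 8.74, 8.98, 7.85 and 9.80 CPM in Atf3+/+FS6KD and 10.3, 11.2, 11.4 and 10.1 CPM in Atf3-/-FS6KD. All 4 knockout hearts were above all 4 controls, with a log2 fold change of 0.28 (SE 0.09, edgeR p 0.0118, adjusted p 0.392). Its log2 fold change was 0.22 to 0.34 on leaving out any one library, 0.28 within replicates 1 and 2 and 0.29 within replicates 3 and 4. Cox7a2l, a supercomplex assembly factor related to subunit 7A, was the only other member above 0, at 0.0042 (SE 0.07), and it lay below 0 with RLE size factors.

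The AAV comparison asked the same of a muscle-directed hairpin labelled against Atf3, for which the Atf3 level showed no knockdown by the titles. No member passed the adjusted threshold in edgeR, and most lay slightly higher in the libraries labelled shAtf3. Of the 47 members, 42 (89.4%) had a log2 fold change above 0, against 49.1% of all genes. The median over members was 0.09 (6.67%), and over all 15225 genes tested it was −0.0029. At an adjusted p below 0.05 edgeR called 0 members and 82 of all genes (0.539%), and the smallest adjusted p among members was 0.172. The 82 became 1 without shAtf3 replicate 2 and 285 without shCtrl replicate 3. DESeq2 called 1 member of 47 (2.13%), Cox7a2, where it called 2.02% of all genes. With no filter on low counts edgeR called the same member, and 1.13% of all genes.

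At an unadjusted p below 0.05, 10 members were higher (21.3%, against 5.05% of all genes) and 0 lower (0.0%, against 7.65%). The groups did not overlap for 18 members that were higher (38.3%, against 8.48% of all genes) and for 1 that was lower, Atp5k (2.13%, against 9.94%). Leaving out shCtrl replicate 3 turned this count of 10 into 22, beside 5.82% of all genes, leaving out shCtrl replicate 2 or shAtf3 replicate 1 into 3, beside 4.45% and 3.7%, and leaving out shAtf3 replicate 3 into 6, beside 3.13%. The mean log2 CPM over members was 8.99, 8.95 and 9.08 for shCtrl hearts and 9.14, 9.04 and 9.09 for shAtf3 hearts, by label. The groups overlapped, since shCtrl replicate 3 was above shAtf3 replicate 2. With libraries scaled by their totals alone, 3 members and 2.5% of all genes were higher at an unadjusted p below 0.05 and the median over members was 0.05, against −0.04 over all genes.

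By complex, the median log2 fold change was 0.12 in complex II with 4 of 4 genes above 0, 0.13 in complex III with 8 of 9, 0.07 in complex IV with 13 of 16 and 0.09 in complex V with 16 of 17. Cox7a2, the ubiquitous isoform of subunit 7A (chromosome 9, 79755241 to 79771422), had the smallest p. It measured 320, 320 and 357 CPM with the shCtrl label and 368, 427 and 451 CPM with the shAtf3 label, without overlap. Its log2 fold change was 0.32 (SE 0.08, edgeR p 0.00406, adjusted p 0.172).

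Cycs (chromosome 6, 50562563 to 50566569), the mobile carrier between complexes III and IV, measured 1426, 1325 and 1301 CPM in shCtrl and 1641, 1606 and 1496 CPM in shAtf3. These groups were also apart (log2 fold change 0.23, SE 0.06, edgeR p 0.00474, adjusted p 0.183). Sdhd (chromosome 9, 50596340 to 50603849), a membrane anchor of complex II, measured 633, 640 and 625 CPM in shCtrl and 727, 699 and 710 CPM in shAtf3. The spread within each group was small beside the distance between them (log2 fold change 0.17, SE 0.05, edgeR p 0.00861, adjusted p 0.225).

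The other members at an unadjusted p below 0.05 in edgeR were Uqcrc2 at 0.15, Atp5md at 0.16, Atp5pb at 0.13, Uqcrb at 0.16, Atp5g1 at 0.16, Sdha at 0.12 and Atp5g3 at 0.15, with adjusted p between 0.290 and 0.358. Among the lowest, Atp5k measured 354, 354 and 367 CPM in shCtrl and 349, 329 and 353 CPM in shAtf3. These groups were apart by under 1 CPM (log2 fold change −0.06, SE 0.06, −0.08 to −0.02 on leaving out any one library). Cox6b2 (−0.10, SE 0.25, above 1 CPM only in shCtrl replicate 3), Cox4i2 (−0.09, SE 0.12), Uqcr11 (−0.04, SE 0.11) and Cox8b (−0.0016, SE 0.07) overlapped, and Cox4i1 stood at 0.01 (SE 0.08), or −0.03 with libraries scaled by totals alone. On leaving out any other single library Cox6b2 ran from −0.28 to −0.03.

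**Figure D3:**
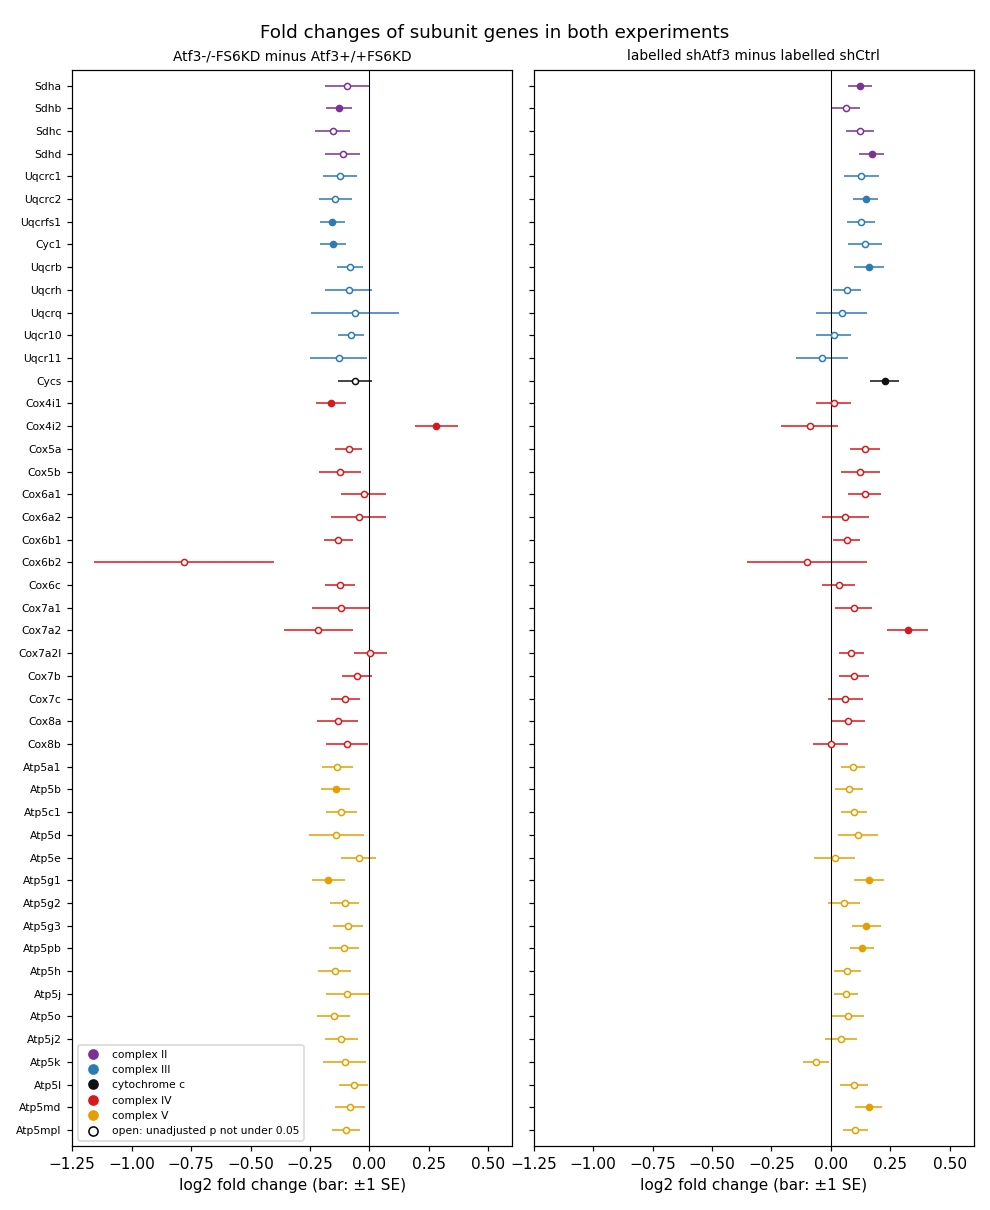
The log2 fold change of each of the 47 genes with 1 SE in the knockout experiment (left) and the AAV experiment (right, by the sample titles), coloured by complex, with filled points for an unadjusted p below 0.05. Points lie left of 0 for 45 genes in the knockout and right of 0 for 42 genes in the AAV experiment.

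The experiments were compared by the difference of their effects in 1 fit of all 14 libraries. Of 15708 genes tested, 26 (0.166%) passed an adjusted p below 0.05 in edgeR, and 0 members did. The 26 became 0 without shAtf3 replicate 2 and 168 without Atf3+/+FS6KD replicate 3. At an unadjusted p below 0.05 the AAV effect was above the knockout effect for 22 members (46.8%, against 7.57% of all genes) and below it for 1, Cox4i2 (2.13%, against 9.41% of all genes; difference −0.37, p 0.0281, adjusted p 0.233). The median difference over members was 0.22. The smallest p belonged to Uqcrfs1 (difference 0.29, edgeR p 0.00226, adjusted p 0.0961), followed by Atp5g1 (0.33, adjusted p 0.121), Cyc1 (0.30, adjusted p 0.122), Uqcrc2 (0.29, adjusted p 0.124) and Sdhd (0.29, adjusted p 0.144). With libraries scaled by totals alone the median of all genes was −0.11 and that of members 0.11, a distance of 0.22, and 5 members and 2.66% of all genes were above at an unadjusted p below 0.05. The count was 13 without shCtrl replicate 2 and 14 without shAtf3 replicate 1, beside 6.72% and 6.11% of all genes.

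This difference turned on which AAV libraries are the controls. When the AAV libraries were grouped by their column names, an alternative chosen after the data were seen, 0 members differed at an unadjusted p below 0.05 and the median difference was 0.02. Of all 15708 genes, 349 were above and 294 below at that threshold, so few genes of any kind differed. Under that grouping every AAV value above changes its sign, and 41 of the 47 members lie below 0 in both experiments. Atp5g1 was the only member with an unadjusted p below 0.05 in both comparisons, lower in one and higher in the other by the titles. Across members the effects in the experiments, which share no library, had a Pearson r of 0.079 (Spearman −0.078, n = 47), and one of −0.194 (Spearman −0.092, n = 45) without Cox6b2 and Cox4i2.

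Fibroblast markers lay on the opposite side of 0 to the subunit genes in both experiments. The 7 fibroblast markers summed to 1507 to 1841 raw CPM in Atf3+/+FS6KD and 1910 to 2593 in Atf3-/-FS6KD, and 6 of the 7 were higher at an unadjusted p below 0.05. They summed to 2029 to 2716 raw CPM with the shCtrl label and 1522 to 1618 with the shAtf3 label, where 7 of 7 were lower at that threshold and 3 passed the adjusted one. Among all genes, 5.41% were higher and 4.69% lower in the knockout at an unadjusted p below 0.05, and 7.65% were lower in the AAV comparison. At an adjusted p below 0.05 in edgeR, 0.539% of all genes passed in the AAV comparison. No fibroblast marker was at 0 throughout a group. The 6 macrophage markers summed to 157 to 204, 174 to 269, 256 to 279 and 225 to 231 raw CPM in the same order of groups. All 6 were above 0 in the knockout comparison, with 2 at an unadjusted p below 0.05, and all 6 below 0 in the AAV comparison, with 4 at that threshold. Of 5 atrial markers, 2 could be tested, and the others did not exceed 1 CPM in any library. Nppa was lower in the AAV comparison (−1.06, SE 0.34, edgeR p 0.0122, adjusted p 0.247), while Sln was at 0 in all hearts labelled shAtf3. A change in atrial tissue was not tested. Of 6 endothelial markers, 0 had an unadjusted p below 0.05 in either comparison. All 5 erythrocyte markers were below 0 in the knockout (median −0.20) and above 0 in the AAV comparison (median 0.04), with 0 at that threshold. Cardiomyocyte markers had a median log2 fold change of −0.14 in the knockout and 0.11 in the AAV comparison. They were not uniform in the knockout, where they ran from −0.36 for Tnnt2 to 0.47 for Actc1, with 2 of 8 lower and 1 higher at an unadjusted p below 0.05. Fewer cardiomyocytes and less subunit RNA per cardiomyocyte cannot be told apart in whole hearts. The part of cell types in the result was not tested.

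Ratios of isoforms within a library do not depend on how libraries are scaled, so they were tested apart from levels. They were taken as log2 ratios of counts, not corrected for length, by an exact two-sided permutation test whose smallest possible p is 0.0286 for the knockout and 0.10 for the AAV experiment. Adjusted over the 12 tests, no p could be under 0.0571, so the adjusted threshold was out of reach, and the smallest adjusted p was 0.343. In all 14 libraries the muscle isoform had more counts than its partner for each of the 3 pairs.

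For muscle and ubiquitous isoforms of complex IV the genotypes overlapped in each ratio. Cox6a2/Cox6a1 was 3.96 ± 0.10 in Atf3+/+FS6KD and 3.94 ± 0.19 in Atf3-/-FS6KD (SD, n = 4 each, exact p 0.857). Cox8b/Cox8a was 2.14 ± 0.15 and 2.18 ± 0.15 (exact p 0.714). Cox7a1/Cox7a2 was 0.91, 0.87, 0.99 and 0.92 in the controls and 1.22, 0.77, 0.77 and 1.29 in the knockouts. The knockout hearts lay on both sides of the controls, 2 above and 2 below, with a difference of 0.09 (exact permutation p 0.514).

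In the AAV experiment Cox7a1/Cox7a2 was 0.97, 1.01 and 1.05 for shCtrl and 0.98, 0.66 and 0.74 for shAtf3, by label. Replicates 2 and 3 of the latter were below all others, with a difference of −0.22 (exact permutation p 0.20, adjusted p 0.48). Cox8b/Cox8a was 1.91 ± 0.05 and 1.84 ± 0.02 (SD, n = 3 each, exact p 0.20), and Cox6a2/Cox6a1 3.66 ± 0.29 and 3.59 ± 0.05 (exact p 0.90). The shAtf3 mean was below the shCtrl mean in all 3 ratios, and the groups overlapped in each.

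Cox4i2/Cox4i1 was the ratio furthest apart. It was −7.48, −7.44, −7.41 and −7.30 in Atf3+/+FS6KD and −7.06, −6.88, −6.85 and −7.07 in Atf3-/-FS6KD. No value overlapped, and the difference of 0.44 had the smallest p the design allows (exact permutation p 0.0286, adjusted p 0.343 over 12 tests). It was 0.49 within replicates 1 and 2 and 0.40 within replicates 3 and 4. In the AAV experiment it was −6.75, −7.06 and −7.39 in shCtrl, a wide spread, and −7.12, −7.18 and −7.18 in shAtf3 (exact permutation p 0.70). The difference between the experiments was −0.54 (exact permutation over 1400 relabellings, p 0.0214, adjusted p 0.129 over 6 ratios). The 5 smooth muscle markers summed to 827 to 1284 raw CPM in Atf3+/+FS6KD and 1041 to 1204 in Atf3-/-FS6KD, and 0 of them had an unadjusted p below 0.05 there. Their log2 fold changes in the knockout ran from −1.07 to 0.28, with 3 above 0 and 2 below. The part of cell types in the Cox4i2 difference was not tested.

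Atp5g1, Atp5g2 and Atp5g3 encode the same mature subunit c. Atp5g1/Atp5g3 was −0.06 ± 0.05 in Atf3+/+FS6KD and −0.14 ± 0.03 in Atf3-/-FS6KD (SD, n = 4 each, exact p 0.0571, adjusted p 0.343). This test did not take the depth groups into account. The difference was −0.07 within replicates 1 and 2 and −0.10 within replicates 3 and 4. Atp5g2/Atp5g3 was −2.38 ± 0.09 and −2.40 ± 0.06 (exact p 0.771). In the AAV experiment Atp5g1/Atp5g3 was −0.11 ± 0.05 and −0.09 ± 0.04 (SD, n = 3 each, exact p 1.0). Atp5g2/Atp5g3 was −2.39 ± 0.07 and −2.48 ± 0.05, where the groups were apart by under 0.01 at the smallest p possible (exact p 0.10, adjusted p 0.40).

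**Figure D4:**
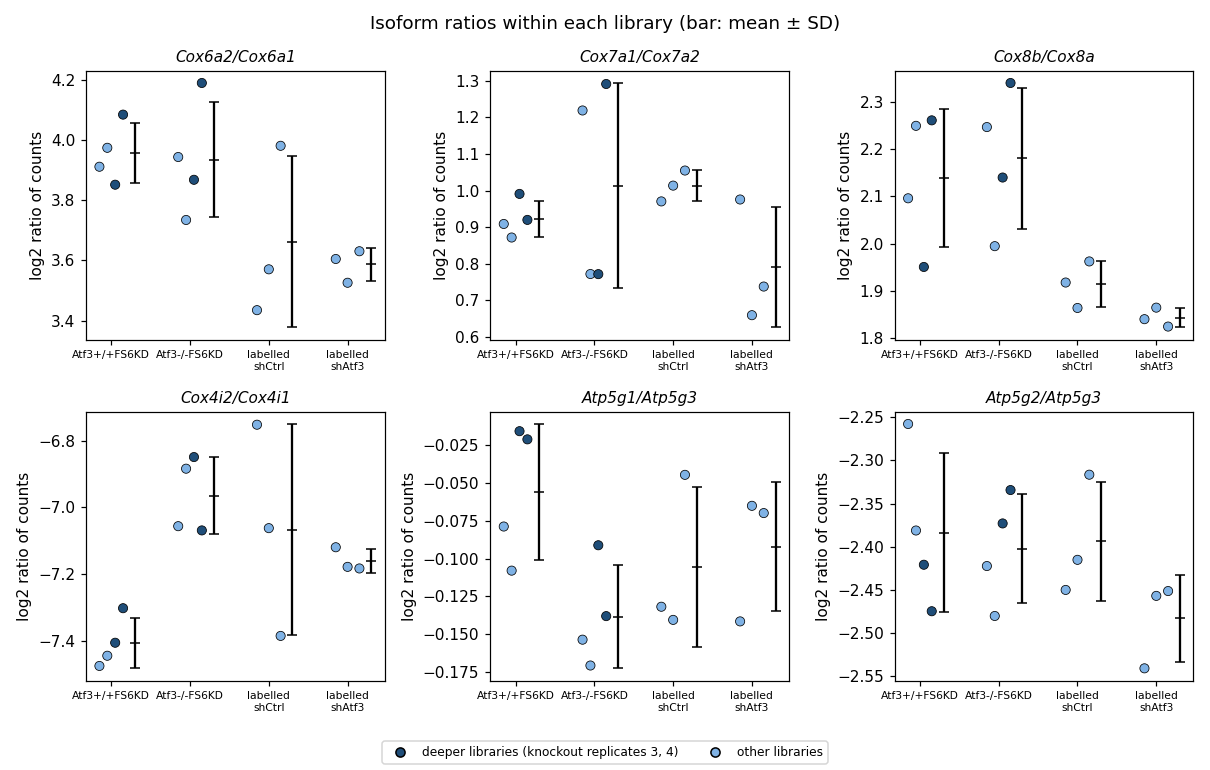
The log2 ratio of counts of 2 isoform genes in each library for 6 pairs, with 1 point per heart (dark for knockout replicates 3 and 4) and the mean ± SD beside them; the vertical axes do not start at 0. Cox4i2/Cox4i1 separates Atf3-/-FS6KD from Atf3+/+FS6KD by 0.44, and Cox7a1/Cox7a2 spreads from 0.77 to 1.29 among the 4 knockout hearts.

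Several members differed more between depth groups of the knockout experiment than between genotypes. With genotype as a term, replicates 3 and 4 were compared with replicates 1 and 2. At an unadjusted p below 0.05, 16 of 47 members differed, against 14.8% of all genes. At an adjusted p below 0.05 in edgeR, 1 member and 0.353% of all genes did. That member, Uqcrq, a small subunit of complex III, measured 437, 502, 582 and 711 CPM in Atf3+/+FS6KD and 425, 436, 654 and 625 CPM in Atf3-/-FS6KD. It was higher in all 4 deeper libraries (log2 difference 0.52, SE 0.08, adjusted p 0.0463), while genotypes overlapped (−0.06, SE 0.19).

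The genes named here were chosen after their values were seen. Uqcr11 (0.32), Cox6a2 (0.30) and Atp5d (0.30) were higher in the deeper libraries, and Cox7a2 (−0.30), Uqcrh (−0.26), Cox7a1 (−0.25) and Atp5j (−0.21) were lower, at unadjusted p below 0.05 each. For 23 of the 47 members the depth difference was further from 0 than the genotype difference. That is close to an even split, and the same count was not taken over all genes. The groups of libraries cut across genotype: the median over members was −0.14 within replicates 1 and 2 and −0.07 within replicates 3 and 4, with 44 of 47 and 40 of 46 below 0. With the depth group as a term, 12 of 47 members and 5.89% of all genes were lower at an unadjusted p below 0.05.

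Across the 47 genes the depth difference had a Pearson r of 0.375 with the GC share of the transcript, and the knockout effect one of −0.080 (Spearman −0.177). With transcript length the knockout effect had an r of −0.041 (Spearman −0.29). The AAV effect had an r of −0.46 with GC share (Spearman −0.494) and 0.369 with transcript length (Spearman 0.396). These are descriptions across genes of the same libraries, and the part of base composition in the AAV effect was not tested.

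**Figure D5:**
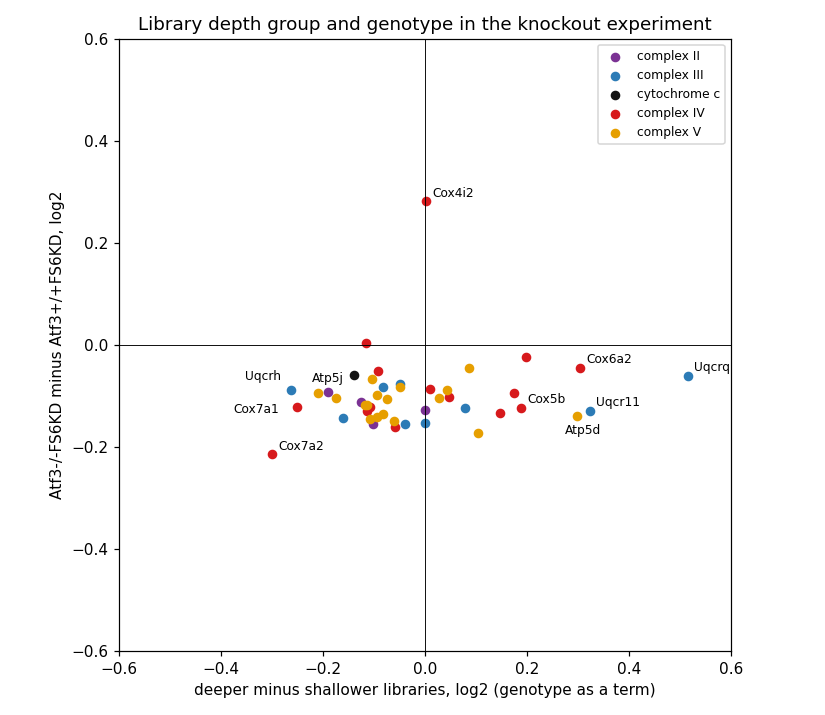
Each point is 1 of 46 genes (Cox6b2 is outside the axes and left out), with the log2 difference between deeper and shallower libraries on the horizontal axis and between genotypes on the vertical axis, on equal scales. The points spread widely from left to right, from Cox7a2 at −0.30 to Uqcrq at 0.52, and lie in a narrow band below 0 from top to bottom apart from Cox4i2 at 0.28 and Cox7a2l at 0.0042.

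Of the related lists, complex I was closest to the members in its counts. Of the 38 complex I subunit genes tested other than Ndufs6, 37 were below 0 in the knockout comparison (median −0.11) and 37 above 0 in the AAV comparison (median 0.09), with 4 and 5 at an unadjusted p below 0.05 in those directions and 0 called. Of 38 assembly factors of complexes II to V, 27 were below 0 in the knockout (median −0.06, 2 at an unadjusted p below 0.05) and 37 above 0 in the AAV comparison (median 0.13, 11 at that threshold). At that threshold 4.69% of all genes were lower and 5.41% higher in the knockout, and 5.05% were higher in the AAV comparison. The 2 assembly factors lower in the knockout were near that share. Of 11 regulators, 5 were below 0 in the knockout (median 0.0036) and 9 above 0 in the AAV comparison (median 0.07). Among them Tfb2m (−0.15) was lower and Gabpb1 (0.21) higher at an unadjusted p below 0.05 in the knockout. Ppargc1a, the coactivator of mitochondrial biogenesis, was at −0.21 (SE 0.10, edgeR p 0.0666, adjusted p 0.527) in the knockout and at 0.28 (SE 0.06, edgeR p 0.00164, adjusted p 0.121) in the AAV comparison. Myc was at −0.71 (SE 0.16, adjusted p 0.126) in the latter.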

How the data were processed

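Poly(A) RNA of 14 whole hearts had been sequenced as stranded libraries. The authors' deposited tables hold estimated counts per gene, not normalized or pooled, with 19.3% to 24.4% of values per library not whole. The submitters' processing notes name featureCounts 2.0.0 and GRCm38 patch 6, and the aligner is not given in the sources used here. Every column of samples was used (0 left out). Rows named as numbered copies of a gene held 2.40% to 2.59% of counts. Those of Uqcrc1 and Atp5a1 equal the gene's own row in all 14 libraries, so each listed count of these genes may be a part of its reads.

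Rounded counts were scaled by TMM and tested by the quasi-likelihood method of edgeR 4.0.16 under R 4.3.3. A gene entered a comparison when any of its libraries exceeded 1 CPM, and p-values were adjusted by Benjamini-Hochberg over all genes entered. The design had assumed whole counts, and the count test was kept. CPM are TMM-normalised unless called raw, and mean log2 CPM used a prior count of 2. The scripts were tested on simulated data. DESeq2 1.42.0, limma 3.58.1 and other settings were alternatives. Isoform ratios and permutation tests were computed with numpy 2.4.6, and correlations with scipy 1.17.1. The chi-square per gene between replicates of a group was at least 6.83, so no group held the same library again.

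The members, lists and named genes were chosen with earlier results of these data known. Named were fixed genes of each complex and the isoform pairs, the 5 members per direction and comparison with the smallest p, and members with an unadjusted p below 0.05 in both comparisons.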

Additional observations from a re-analysis of the deposited data

Results flagged for a closer look

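Of 82 groups of 4 knockout-experiment libraries examined for the named genes, ratios and means, 3 held a sample far from the other members of its group, and chance flags about 1 group in 20. Atp5b in Atf3+/+FS6KD was lowest in replicate 3, at 5535 CPM. Cox4i1 in the same group was lowest in the same library, at 1332 CPM. Sdhc in Atf3-/-FS6KD was lowest in replicate 4, at 407.8 CPM. No member differed between the experiments at an adjusted p below 0.05 in edgeR, where 22 members were higher and 1 lower at an unadjusted p below 0.05.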

How the results depend on the processing

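No member was called in any knockout or interaction setting run. In the AAV comparison DESeq2 and no filter called 1 each, Cox7a2, where they called 2.02% and 1.13% of all genes. The count of lower members in the knockout (6) was 10 in DESeq2, 0 with library size alone, 13 in the fit of all 14 libraries, 2 within replicates 1 and 2, 0 within replicates 3 and 4, 12 with the depth group as a term, and 1 to 18 on leaving out a library. At an unadjusted p below 0.05, 1036 of 15708 genes were lower in the fit of all 14 libraries. For all genes it was 418 of 15397 within replicates 1 and 2 and 526 of 15235 within replicates 3 and 4. The count of higher members in the AAV comparison (10) was 3 with library size alone and 3 to 22 on leaving out a library. The interaction count (22) was 5 with library size alone, 13 to 29 on leaving out a library and 0 with AAV libraries grouped by column name, where the median was 0.02. The 29 came without shCtrl replicate 3, beside 7.64% of all genes. Replicate numbers did not pair the samples: same-numbered deviations correlated at 0.006 to 0.145 (knockout) and 0 to 0.151 (AAV). With the replicate block the knockout count was 11, the AAV count 11 and the interaction count 26 (5.72%, 5.08% and 8.67% of all genes), with 0 members called. The blocked ratio tests could give no p under 0.125 and so no call. Some named genes near 0 changed sign. In the knockout comparison Cox7a2l was −0.0001 with DESeq2 and RLE size factors, Cox6a1, Cox6a2 and Cycs were 0.038, 0.017 and 0.0037 with library size alone, Cox6a1 was 0.021 within replicates 1 and 2 and Cox7a1 0.016 within replicates 3 and 4. In the AAV comparison Cox8b was 0.0005 with DESeq2, 0.0004 with RLE size factors, 0.0056 with no filter and 0.0002 in the fit of all 14 libraries, and Cox4i1 was −0.028 with library size alone. With AAV libraries grouped by column name the interaction was −0.060 for Sdhd and −0.0056 for Uqcrc2. On leaving out a library the knockout values ran from −0.099 to 0.031 for Cox6a1, −0.117 to 0.030 for Cox6a2 and −0.047 to 0.042 for Cox7a2l. The AAV values ran from −0.027 to 0.090 for Cox4i1, −0.171 to 0.042 for Cox4i2, −0.012 to 0.180 for Cox6a2, −0.045 to 0.067 for Cox8b and −0.123 to 0.068 for Uqcr11. Knockout ratios ran from −0.107 to 0.045 for Cox6a2/Cox6a1, −0.002 to 0.171 for Cox7a1/Cox7a2, −0.022 to 0.103 for Cox8b/Cox8a and −0.049 to 0.023 for Atp5g2/Atp5g3. AAV ratios ran from −0.189 to 0.085 for Cox6a2/Cox6a1, −0.253 to 0.064 for Cox4i2/Cox4i1 and −0.004 to 0.044 for Atp5g1/Atp5g3. The cause was not tested.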
